A study of Bos grunniens and Bos grunniens x Bos taurus with 2 samples.

Results

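ACTL7A, ACTL7B, ACTRT3, CCIN, CYLC1 and CAPZA3 encode proteins of the sperm head cytoskeleton. They were taken by symbol from the 26961 features of the count tables, where each of the 6 symbols matched 1 feature, the same in both libraries. Testicular tissue was sequenced as 1 droplet library from a yak and 1 from a cattle-yak, the hybrid of cattle and yak, whose males are known to be sterile. Both were taken after sexual maturity, and the tissue had been frozen and enzymatically digested before capture. The methods describe a single male yak. The labels give neither the number of animals nor the parents of the cattle-yak, and the methods do not describe that library. With 1 library per group no difference between them could be tested, and every interval given here is a 95% interval that covers counting error only.

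The perinuclear theca is a dense protein shell that encloses the nucleus of the sperm. Its front part lies under the acrosome, the enzyme-filled vesicle that helps the sperm to pass the egg coat, and its rear part, the calyx, covers the nucleus behind the acrosome. The acroplaxome is the plate rich in actin and keratin that anchors the growing acrosome to the nuclear envelope of the round spermatid. ACTL7A and ACTL7B are actin-like proteins of the spermatid. ACTRT3 is an actin-related protein known to bind profilin 3. CCIN (calicin) and CYLC1 (cylicin 1, encoded on the X chromosome) are basic proteins of the calyx, and CAPZA3 is the germ cell form of the alpha subunit of the capping protein, which closes the growing end of actin filaments.

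The yak library held 11991 cells and 60816600 unique molecular identifiers (UMIs, each counting 1 captured RNA molecule), and the cattle-yak library held 8930 cells and 43774841 UMIs. The median cell had 2533 and 3155 UMIs. Germ cell types followed the study's own list of 1127 yak barcodes, with 84 spermatogonial stem cells (SSC), 486 spermatogonia (SPG), 72 early and 261 late primary spermatocytes (early-SPC, late-SPC) and 224 spermatids (SPT). The study states that cells within 2 SD of the mean in genes and UMIs were kept. Recomputed here, that rule left out yak cells with over 21212 UMIs or 3637 genes. It kept 10324 yak cells, more than the study kept, so its own limits were not recovered, and its typed cells had at most 11202 UMIs. Cells above the limits given here, called deep cells and with a mitochondrial share below 30%, were clustered here without the 6 genes and without other theca genes, and clusters were named from marker lists. Of the 790 deep yak cells, 406 fell into 9 germ-like clusters. Barcodes present in both libraries numbered 24, of which 3 belonged to yak germ cells.

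The typing was compared with the marker lists before the 6 genes were read. The SPT list, with 15 of its 20 genes in the annotation, summed to 7249 CPM (UMIs of the genes per 1000000 UMIs of the group) in SPT and to 438.8 CPM in late-SPC. That list shares genes with those by which the study recognised SPT, so this difference was partly fixed in advance. In the cells typed SSC the endothelial list summed to 1940.1 CPM, beside 3044 CPM in endothelial-like (EC-like) cells and 428 CPM in SPG. The SPG list summed to 640 CPM in SSC, beside 1514 CPM in SPG and 174 CPM in EC-like cells. With genes of both lists present, the label SSC is uncertain. ACTL7B, CAPZA3 and ACTRT3 were among the genes by which the study recognised SPT, so their rise in SPT is partly built into the typing. ACTL7A, CCIN and CYLC1 were not among them.

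All 6 genes had their highest level in SPT. Summed, they made up 2102 CPM of the SPT UMIs (95% interval 1933 to 2282), against 180.6 CPM (144 to 223) in late-SPC, a log2 ratio of 3.54 (3.21 to 3.89). In SSC, SPG and early-SPC the sum lay at 52.3, 50.1 and 24.6 CPM, with overlapping intervals. SPT held 571 of the 703 UMIs that the 6 genes had in the typed cells.

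Each gene was then read across the 5 types. ACTL7A, required for the attachment of the acrosome, had no UMI in SSC or early-SPC, 6.46 CPM in SPG, 21.0 CPM (10.1 to 38.6) in late-SPC and 214 CPM (162 to 276) in SPT. ACTL7B lay at 32.7, 16.2 and 10.5 CPM in SSC, SPG and early-SPC, at 77.7 CPM (54.7 to 107) in late-SPC and at 468 CPM (390 to 556) in SPT. ACTRT3 lay at 6.53, 11.3 and 3.51 CPM in the same early types, at 21.0 CPM in late-SPC and at 155 CPM (111 to 209) in SPT. The values of the early types rest on 5, 10 and 3 UMIs of ACTL7B, 1, 7 and 1 of ACTRT3, and 4 of ACTL7A in SPG. In each of these actin-related genes the SPT interval stood clear of the late-SPC interval, and the late-SPC interval overlapped that of the next lower type.

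CCIN lay at 6.53, 6.46 and 3.51 CPM in SSC, SPG and early-SPC, at 21.0 CPM (10.1 to 38.6) in late-SPC and at 482 CPM (403 to 572) in SPT. CYLC1 had no UMI in SSC or early-SPC, 6.46 CPM in SPG, 23.1 CPM (11.5 to 41.3) in late-SPC and 291 CPM (230 to 363) in SPT. CAPZA3 lay at 6.53, 3.23 and 7.02 CPM in SSC, SPG and early-SPC, at 16.8 CPM (7.25 to 33.1) in late-SPC and at 493 CPM (413 to 584) in SPT. The values of the early types rest on 1, 2 and 2 UMIs of CAPZA3, 1, 4 and 1 of CCIN, and 4 of CYLC1 in SPG. Cells named as T and natural killer lymphocytes (T/NK-like) had from 3.19 CPM of CYLC1 to 9.81 CPM of ACTL7B. For each of the 6 genes, the intervals of SSC, SPG and early-SPC overlapped that of the T/NK-like cells. From late-SPC to SPT, CAPZA3 (29.4-fold) and CCIN (23.0-fold) had the largest ratios. CYLC1 (12.6-fold), ACTL7A (10.2-fold), ACTRT3 (7.36-fold) and ACTL7B (6.02-fold) followed, and the log2 interval of CYLC1 (2.74 to 4.71) overlapped that of ACTL7A (2.37 to 4.48).

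**Figure D1:**
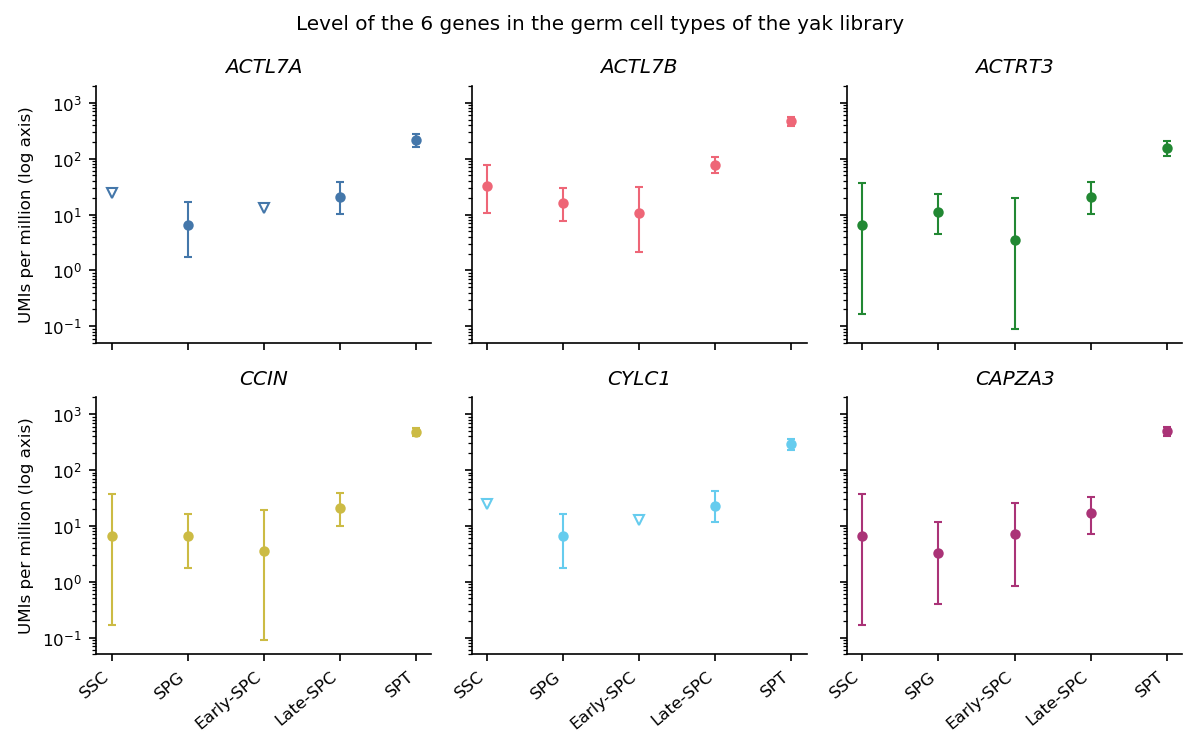
CPM of the 6 genes (log axis) in the 5 germ cell types of the yak library, as the sum over the cells of a type. Bars are exact 95% Poisson intervals, and open triangles give the upper limit where no UMI was counted. SPT stands above all other types in every panel, and the intervals of SSC, SPG and early-SPC overlap.

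Over all genes with at least 20 UMIs in SPT and late-SPC together, 21.1% had a log2 ratio of 1 or more (1 CPM added to both levels), and the median was -0.26. The 6 genes ranged from 2.57 for ACTL7B to 4.80 for CAPZA3 on that scale. Because the study typed the cells on these same counts, the ratios are descriptions.

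The late-SPC were made of 2 of the study's clusters, and the 6 genes were not spread evenly over them. Its cluster 3, with 196 cells, held 82 of the 86 UMIs (277 CPM), and cluster 7, with 65 cells, held 4 (22.3 CPM). ACTL7B lay at 118 CPM in cluster 3 and at 11.1 CPM in cluster 7, a log2 ratio of 3.41 (1.45 to 6.51). ACTL7A, ACTRT3 and CYLC1 had no UMI in cluster 7. For CCIN and CAPZA3, with 1 UMI each in cluster 7, the interval of the ratio included 0.

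Most molecules of the 6 genes lay outside the typed cells. Of their 15451 UMIs in the yak library, the 406 deep germ-like cells held 77.7% (77.0 to 78.3), while the same cells held 21.7% of all UMIs and were 3.39% of the cells. The 224 typed SPT held 3.70% (3.40 to 4.01). Another 10.8% lay in 354 germ-like cells that passed the depth limits and were not on the study's list. The share in deep germ-like cells was between 78.2% and 80.3% for 5 of the genes and 65.3% (62.5 to 68.0) for ACTRT3. Cells outside the germ-like clusters and the study's list that passed the limits held 16.6% of the ACTRT3 UMIs. They held 3.91% to 5.68% of those of the other 5 genes.

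**Figure D2:**
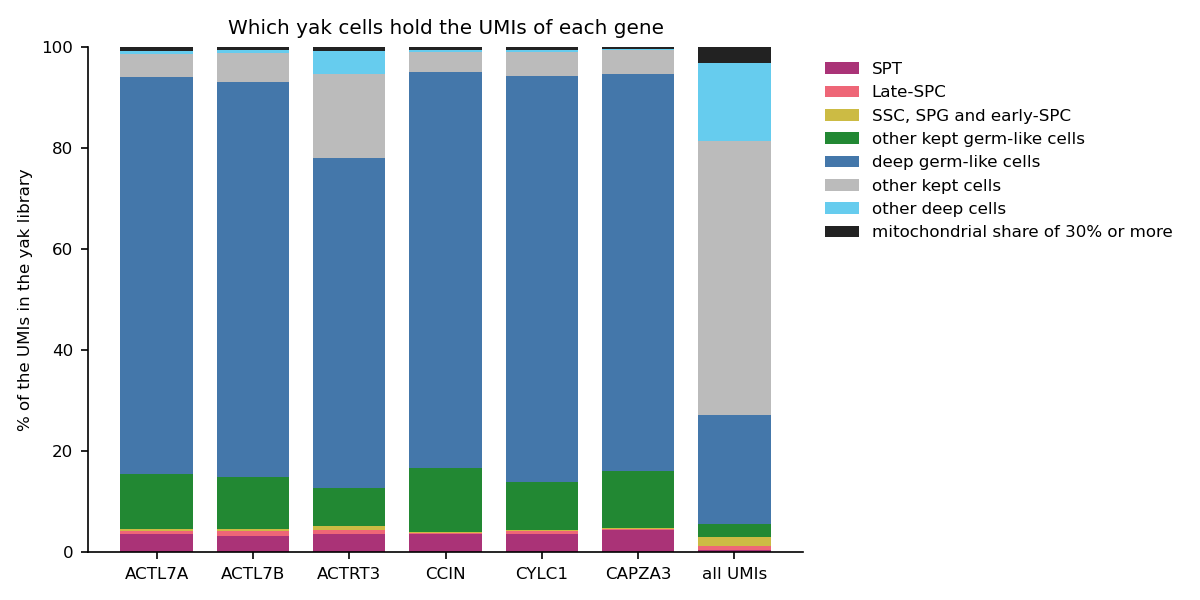
Percentage of the yak library's UMIs of each gene, and of all UMIs, held by each group of cells. Bars are stacked from 0 to 100%. Deep germ-like cells hold 65.3% (ACTRT3) to 80.3% (CYLC1) of the UMIs of a gene and 21.7% of all UMIs.

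The 9 deep germ-like clusters gave the course of the 6 genes at a median of 26567 UMIs per cell, against 1074 in the typed germ cells. In the clusters named SPG-like (cluster 9, 82 cells) and early-SPC-like (clusters 13 and 11, 40 and 17 cells), and in clusters 6 and 3 (81 and 16 cells), which met no single stage, no gene passed 6.30 CPM. Cluster 7, late-SPC-like with 49 cells, had 13.8 CPM of ACTL7B (9.79 to 19) and 8.38 CPM of CCIN (5.31 to 12.6), with the other 4 genes between 1.46 and 1.82 CPM. Its late-SPC list stood at 3651 CPM and its SPT list at 87.8 CPM. Deep yak cells outside the germ-like clusters had 2.84 CPM of ACTL7B (1.87 to 4.14) and 1.58 CPM of CCIN (0.884 to 2.61), below the intervals of cluster 7. T/NK-like cells had 9.81 and 7.23 CPM, values within those intervals.

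Cluster 0, also late-SPC-like and of 50 cells, had the SPT list at 1199.7 CPM and ACRV1, an acrosomal protein gene, at 372 CPM, beside 1.82 CPM in cluster 7. All 6 genes were higher there than in cluster 7, and no interval overlapped. CYLC1 lay at 117 CPM (101 to 133), ACTL7B at 273 CPM (250 to 298), ACTL7A at 65.9 CPM (54.7 to 78.7), CCIN at 80.1 CPM (67.6 to 94.1), ACTRT3 at 38.1 CPM (29.7 to 48.2) and CAPZA3 at 31.0 CPM (23.5 to 40.2). In log2 ratios to cluster 7, CYLC1 had the widest step, at 6.32 (4.94 to 8.21), and CCIN the narrowest, at 3.26 (2.62 to 3.96). The interval of CYLC1 overlapped those of ACTL7A, ACTRT3 and CAPZA3. That of CCIN overlapped those of ACTL7B, ACTRT3 and CAPZA3. CYLC1 had 4 UMIs in cluster 7, or 1.46 CPM (0.397 to 3.73), beside 1.26 CPM (0.653 to 2.21) in deep cells outside the germ-like clusters. ACTL7B was counted in 49 of the 50 cells, CYLC1 in 46 and CAPZA3 in 16.

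The SPT-like clusters 15 and 8, with 26 and 45 cells, carried all 6 genes in every cell. In cluster 15 the levels were 377 CPM for ACTL7A, 844 for ACTL7B, 218 for ACTRT3, 756 for CCIN, 425 for CYLC1 and 655 for CAPZA3. In cluster 8 they were 457, 1003, 276, 1182, 656 and 1040 CPM in the same order. TNP1, a transition protein that replaces histones in the elongating spermatid, stood at 234 CPM in cluster 15 and at 922 CPM in cluster 8. The step from cluster 15 to cluster 8 was small for ACTL7B (log2 ratio 0.25, 0.13 to 0.37), ACTL7A (0.28, 0.10 to 0.46) and ACTRT3 (0.34, 0.10 to 0.58), and larger for CYLC1 (0.63, 0.46 to 0.79), CCIN (0.65, 0.52 to 0.77) and CAPZA3 (0.67, 0.53 to 0.80). The intervals of ACTL7B and ACTL7A did not overlap those of CCIN and CAPZA3, while that of ACTRT3 did.

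**Figure D3:**
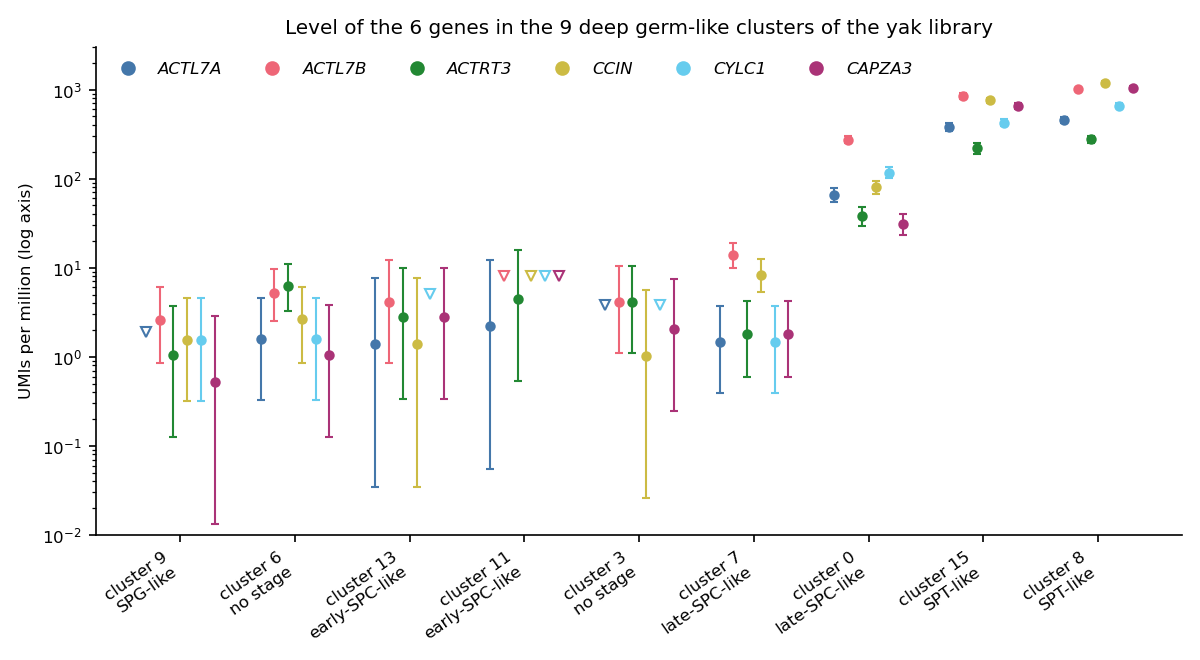
CPM of the 6 genes (log axis) in the 9 deep germ-like clusters of the yak library, in the order of the stage lists. Bars are exact 95% Poisson intervals, and open triangles give the upper limit where no UMI was counted. Levels lie at or below 13.8 CPM up to cluster 7, between 31.0 and 273 CPM in cluster 0 and between 218 and 1182 CPM in clusters 15 and 8.

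For each gene, the level in late spermatocytes was taken as a share of the spermatid level. A share is also lower where the spermatid level is higher, so it does not give the order in which the genes appeared. In cluster 0 the intervals of CAPZA3 and ACTRT3 overlapped, at 31.0 and 38.1 CPM, while deep SPT-like cells had 893 and 254 CPM of them. ACTL7B had the highest share, with 16.6% (11.2 to 24.1) in the typed cells and 12.5% (11.3 to 13.7) in the deep cells. CAPZA3 had the lowest, with 3.41% (1.44 to 6.90) and 1.52% (1.16 to 1.95). CCIN came next to it, with 4.35% (2.04 to 8.26) and 3.64% (3.10 to 4.25). In the typed cells ACTL7A (9.83%), ACTRT3 (13.6%) and CYLC1 (7.94%) lay between them with intervals that overlapped their neighbours. In the deep cells CYLC1 (8.38%, 7.23 to 9.66), ACTRT3 (6.45%, 5.01 to 8.20) and ACTL7A (6.39%, 5.27 to 7.70) overlapped one another and were clear of ACTL7B above and of CCIN below. The deep value pools clusters 0 and 7. Cluster 0 held 1110 of the 1189 UMIs of the 6 genes in them. Its SPT list stood at 1199.7 CPM, beside 87.8 CPM in cluster 7. The deep shares thus rest mostly on cluster 0, which carried genes of both the late-SPC and the SPT list. With cluster 7 alone, on 4 to 38 UMIs per gene, ACTL7B stood at 1.47% (1.04 to 2.02) and CCIN at 0.822% (0.520 to 1.24). CYLC1 stood at 0.256% (0.0698 to 0.658) and CAPZA3 at 0.204% (0.0662 to 0.477). ACTL7B was clear of CAPZA3. The interval of ACTL7B overlapped those of CCIN and ACTRT3, and that of CAPZA3 overlapped those of CYLC1, ACTL7A and ACTRT3. CAPZA3 lay there at 1.82 CPM (0.591 to 4.25), beside 0.843 CPM (0.364 to 1.66) in deep cells outside the germ-like clusters.

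The contrast of ACTL7B and CAPZA3 was put in 1 number, the log2 of the ratio of both shares. It was 2.29 (1.13 to 3.44) in the typed cells and 3.04 (2.65 to 3.43) in the deep cells, which are different cells of the same library. These genes had the highest and the lowest share, and the number was added after the data were seen. Intervals clear of 0 were thus partly fixed by the choice of the pair. Over all genes with at least 20 UMIs, 27.4% had a log2 ratio of 1 or more between deep SPT-like and deep late-SPC-like cells, with a median of -0.40. The 6 genes ranged from 2.99 to 5.94, all with 1 CPM added to both levels. Germ-like cells that passed the depth limits and were not typed by the study lay partly in the kept clusters 11 (113 cells, low in the 6 genes) and 19 (70 cells, high in them). Both clusters were SPT-like, so their ratio does not compare late spermatocytes with spermatids and cannot bear on the shares above. The level in cluster 11 was 22.0% (15.5 to 30.5) of that in cluster 19 for ACTL7B and 3.87% (1.55 to 8.07) for CAPZA3. ACTL7A (5.77%) came next to CAPZA3 there, and CCIN (8.17%) came after it.

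**Figure D4:**
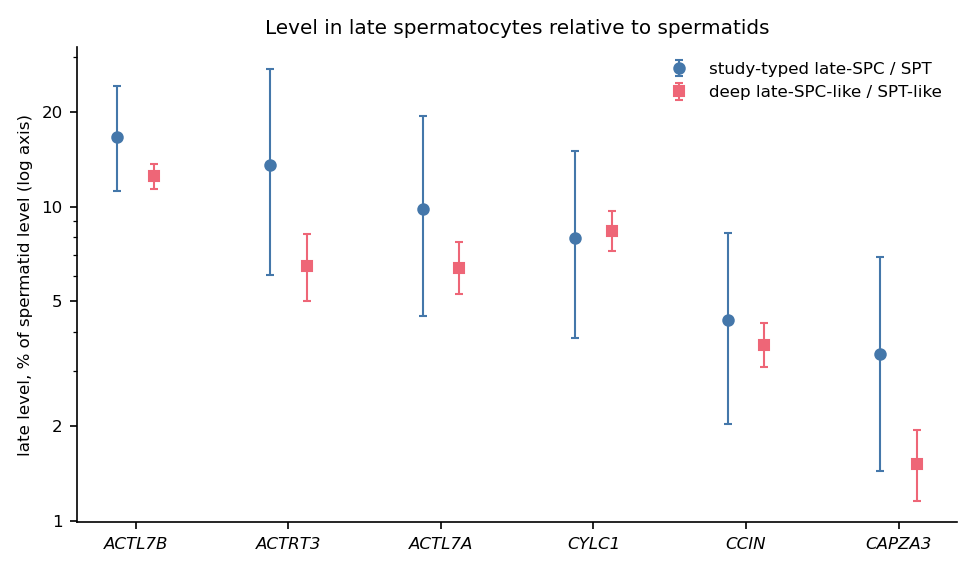
Level of each gene in late spermatocytes as a percentage of its level in spermatids (log axis), with exact 95% intervals. Circles are typed late-SPC over SPT, and squares are deep late-SPC-like over deep SPT-like cells. Most late-SPC-like UMIs came from cluster 0, which also carried genes of the SPT list. ACTL7B lies highest at 16.6% and 12.5%, and CAPZA3 lowest at 3.41% and 1.52%.

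The typed and the deep spermatids were set side by side. The sum of the 6 genes was 4103 CPM (4026 to 4182) in deep SPT-like cells and 2102 CPM in typed SPT, a log2 ratio of 0.96 (0.84 to 1.09). The ratio was alike over the genes, from 0.71 (0.26 to 1.20) for ACTRT3 to 1.08 (0.83 to 1.34) for CCIN, with overlapping intervals. The 70 untyped cells of the kept SPT-like cluster 19, with a median of 4999 UMIs, lay near the deep cells, at 3800.3 CPM (3613 to 3994). Their levels were 397 CPM for ACTL7A, 853 for ACTL7B, 191 for ACTRT3, 1067 for CCIN, 463 for CYLC1 and 829 for CAPZA3, and 27 of the 70 cells had UMIs of all 6 genes. The untyped cells of cluster 11 had 22.9, 188, 41.3, 87.1, 55.0 and 32.1 CPM in the same order, levels that lay between the deep clusters 7 and 15. The T/NK list, with 7 of its 14 genes in the annotation, stood at 158 CPM in typed SPT, at 60.0 CPM in deep SPT-like cells and at 1594 CPM in T/NK-like cells. Its part in the difference was not tested. None of the 71 deep SPT-like cells was among the 10% of yak cells with the highest doublet scores, and 30 of the 224 typed SPT were.

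Single deep spermatids varied in counted level, a spread that includes the counting error of each cell. In the 71 deep SPT-like cells, UMIs per cell ran from 4 over a median of 33 to 113 for ACTL7B, from 6 over 36 to 144 for CCIN and from 6 over 31 to 129 for CAPZA3. They ran from 2 over 15 to 49 for ACTL7A, from 1 over 8 to 22 for ACTRT3 and from 2 over 18 to 77 for CYLC1. No cell lacked any of the 6 genes. On the CPM scale, which divides by the UMIs of the cell, the cells from the lower to the upper quartile lay between 772 and 1056 CPM for ACTL7B, between 795 and 1224 CPM for CCIN and between 663 and 1081 CPM for CAPZA3. The quartiles were 320.1 and 512 CPM for ACTL7A, 176 and 312 CPM for ACTRT3 and 408 and 707 CPM for CYLC1. With the UMIs per cell, the levels had Spearman correlations from -0.06 for CAPZA3 to 0.29 for ACTRT3. Across these cells, which share 1 library and pool clusters 15 and 8, the Spearman correlation of the levels was 0.53 to 0.58 for the 3 pairs among CCIN, CYLC1 and CAPZA3. It was 0.08 to 0.48 for the other 12 pairs, and ACTRT3 had the fewest UMIs per cell. CCIN, CYLC1 and CAPZA3 also had the larger steps from cluster 15 to cluster 8. The part of that step in their correlation was not tested.

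Detection was compared at equal depth by drawing 500 UMIs from each cell. At that depth 55.8% (49.0 to 62.4) of the 224 SPT had a UMI of at least 1 of the 6 genes, against 13.4% (9.52 to 18.2) of late-SPC and 1.80% (1.40 to 2.28) of the T/NK-like cells, which serve as background. The median depth before drawing was 906, 1168 and 1941 UMIs. In SPT, 20.1% had a UMI of CAPZA3, 18.3% of ACTL7B, 17.9% of CCIN, 15.6% of CYLC1, 8.48% of ACTL7A and 6.70% of ACTRT3. Of the SPT, 21.4% (16.2 to 27.4) had UMIs of 2 or more of the genes, where 21.1% would be expected from the single shares if the 6 genes were counted independently of one another. With all UMIs, where cells differ in depth, the shares in SPT were 74.6% for any gene and 42.9% (36.3 to 49.6) for 2 or more, where independence would give 52.9%. In T/NK-like cells they were 7.15% and 0.134%.

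CAPZA3 was compared with the general alpha subunits CAPZA1 and CAPZA2. In typed SPT, 134 of the 154 alpha subunit UMIs were of CAPZA3, a share of 87.0% (80.7 to 91.9). The share was 22.9% (10.4 to 40.1) in late-SPC, 4.35% in early-SPC, 2.00% in SPG and 4.17% in SSC. The values of early-SPC, SPG and SSC rest on 2, 2 and 1 UMIs of CAPZA3. For background, the share was 6.34% (4.77 to 8.23) in T/NK-like cells and 2.79% (2.36 to 3.27) in all kept somatic cells. In the deep cells it was 4.51% (1.48 to 10.2) in cluster 7, 39.3% (31.3 to 47.8) in cluster 0, 92.6% (90.5 to 94.5) in cluster 15 and 94.5% (93.3 to 95.5) in cluster 8. The shares are of counted UMIs, and how evenly the transcripts of the 3 genes were captured was not tested.

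The other subunits moved differently. CAPZA2 lay at 149.6 CPM in deep cluster 6 and at 88.1 CPM in cluster 9, and it fell to 3.64 CPM in cluster 7 and stayed at 7.0 and 3.71 CPM in clusters 15 and 8. CAPZA1 lay between 30.6 and 106 CPM in all 9 clusters. CAPZB, the beta subunit that pairs with any alpha subunit, lay at 24.8 CPM (19.2 to 31.4) in cluster 7, 29.4 CPM (22.1 to 38.4) in cluster 0, 161 CPM (137 to 188) in cluster 15 and 474 CPM (441 to 509) in cluster 8. It was also higher in typed SPT, at 188 CPM (140 to 247), than in late-SPC, at 39.9 CPM (24.0 to 62.3).

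Other genes of the theca, the acroplaxome and acrosome attachment were taken as a list of 32, of which 27 were in the annotation. CYLC2, FAM209A, FAM209B, SPACA7 and RIMBP3 were not analysed here. Among the 19 genes with at least 20 UMIs in SPT and late-SPC together, 9 had a log2 ratio of 1 or more and 2 of -1 or less, with a median of 0.40. Over all genes the shares were 21.1% and 27.9%, and the median was -0.26. PFN3, the profilin that binds ACTRT3, had the highest ratio at 5.36, with 902 CPM in SPT and 21.0 CPM in late-SPC. The actin-related genes ACTRT2 (5.26) and ACTL9 (4.36) followed, then PLCZ1 (4.05), the sperm factor that activates the egg.

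SPACA4 (3.54) and SPACA1 (2.44), proteins of the acrosomal membrane, and SPATA46 (3.16), a protein of the subacrosomal nuclear envelope, were also higher. CAPZB (2.21) and HOOK1 (1.36), which links the microtubules of the spermatid manchette, made up the rest of the higher genes. HOOK1 was among the genes by which the study recognised SPT, so its rise is partly built into the typing. DPY19L2, which holds the acrosome to the inner nuclear membrane, went the other way at -1.71, with 218 CPM in late-SPC and 66.3 CPM in SPT. SPATA16, needed for acrosome formation and one of the late-SPC markers used here, was at -1.15. Of the general actin genes (9 taken, 8 in the annotation), 4 had enough counts and none passed either limit. ACTB and the profilin gene PFN1, both at 0.98, lay just below the upper limit, and the others lay at -0.15 and -0.53. ACTB lay at 398 CPM in SPT and 202 CPM in late-SPC.

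In the deep cells 14 of the 25 genes with enough counts had a log2 ratio of 1 or more between SPT-like and late-SPC-like cells, beside 27.4% of all genes, and 5 had -1 or less, beside 35.1%. DPY19L2 was again among the lower ones, with 319 CPM in late-SPC-like and 62.7 CPM in SPT-like cells. Of the 7 general actin genes with enough counts, 4 had -1 or less and none had 1 or more, and ACTB lay at 43.9 CPM in late-SPC-like and 43.2 CPM in SPT-like cells. ACTG1, the gamma actin of the general cytoskeleton, lay at 135 and 26.0 CPM in the same cells, and ACTR3, a subunit of the Arp2/3 complex, at 103 and 30.6 CPM.

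For each of the 6 genes, the genes with the most similar course were sought over 20 groups (the 5 types, the 9 deep clusters and 6 somatic classes), among 5244 genes with at least 50 UMIs in the typed cells. The measure was Pearson's r of log2(CPM + 1), and groups with spermatids dominate it. KLHL10, a spermatid component of a ubiquitin ligase, was nearest to ACTL7A (r = 0.99), followed by FABP12 and CCDC105 (both 0.98). THEG (0.97) and SPATA46 (0.97) were nearest to ACTL7B. FAM229A (0.98) and TEX33 (0.97) were near ACTRT3, while PFN3 (0.99) and GSG1 (0.99) were nearest to CCIN. CCDC105 (0.99) and CBY2 (0.98) were nearest to CYLC1, and HMGB4 (0.98) and PFN3 (0.98) were near CAPZA3. Among themselves the 6 genes had r between 0.90 (ACTL7A with ACTL7B) and 0.98 (CCIN with CAPZA3).

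The place of the genes in the genome was read from the RefSeq table of another yak assembly, Bosgru_T2T1.0, by order only. ACTL7A and ACTL7B are next to each other and do not overlap. CAPZA3 overlaps PLCZ1 there, and CCIN overlaps an uncharacterised long noncoding RNA gene. The strand setting of the counting is not given in the sources used here, so reads of such partners could not be told apart. In deep SPT-like cells PLCZ1 lay at 371 CPM, and its log2 ratio to late-SPC-like cells was 5.39, beside 5.94 for CAPZA3.

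Outside the germ line the genes were compared with SPT in 8843 yak cells that passed the limits. These were all kept cells outside the germ-like clusters and the study's list, and some lay in clusters without a name. Their sum there was 26.7 CPM (24.9 to 28.5), and SPT lay above it by a log2 ratio of 6.30 (6.15 to 6.46). With 1 CPM added to both levels, 26.5% of all genes had a log2 ratio of 1 or more in that comparison. On that scale the 6 genes ranged from 4.49 for ACTRT3 to 6.51. The low level was present in every named class, from 14.6 CPM in pericyte-like to 34.2 CPM in T/NK-like cells. Some unnamed clusters stood higher, with 41.4 CPM (28.1 to 58.7) in cluster 10. Cluster 17 (32 cells, 8 UMIs) had 149 CPM (64.1 to 293), and cluster 4 (20 cells, 5 UMIs) had 277 CPM (90.1 to 647). The 877 yak cells with a mitochondrial share of 30% or more had 43.8 CPM (34.9 to 54.4), and the 384 deep cells outside the germ-like clusters had 13.1 CPM (10.9 to 15.6). In none of the 8843 cells were all 6 genes counted, and 29 had UMIs of 2 or more of them.

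ACTRT3 was distributed differently from the other 5 genes in these cells. It made up 7.36% (5.35 to 9.81) of the UMIs of the 6 genes in SPT, 6.18% (5.73 to 6.65) in deep SPT-like cells and 10.4% (7.07 to 14.6) in T/NK-like cells. Its share was 41.0% (32.0 to 50.5) in EC-like cells, 28.6% (19.2 to 39.5) in myoid-like (MC-like) cells, 25% (16.0 to 35.9) in stromal-like cells and 32.8% (24.6 to 41.9) in the unnamed cluster 0 of kept cells. ACTRT3 lay at 8.58 CPM (6.33 to 11.4) in EC-like and 3.55 CPM (2.38 to 5.10) in T/NK-like cells. ACTL7B was the reverse, with 3.93 CPM (2.47 to 5.96) in EC-like and 9.81 CPM (7.78 to 12.2) in T/NK-like cells. Among the other 5 genes, ACTL7B held 24.0% of the UMIs in SPT and 32.3% in the somatic cells together, CCIN 24.8% and 20.8%, CAPZA3 25.3% and 21.3%, CYLC1 14.9% and 14.8%, and ACTL7A 11% and 10.9%.

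In the cattle-yak library 5 of the 6 genes had between 0 and 10 UMIs, and ACTRT3 had 105. ACTL7A, CYLC1 and CAPZA3 had no UMI, which at this depth still permits 0.0685 CPM (3 UMIs), against 26.1, 35.04 and 50.4 CPM in the yak library. They were therefore at least 381-fold, 511-fold and 735-fold lower. ACTL7B had 7 UMIs against 3871, which is 398-fold lower (193 to 991), and CCIN had 10 against 3631, 261-fold lower (142 to 545). The 105 UMIs of ACTRT3 stood against 1166, which is 7.99-fold lower (6.54 to 9.86). Over all genes with at least 20 UMIs in both libraries together, 14.1% had a log2 ratio of -1 or less. In whole libraries, fewer cells of a type and less RNA per cell cannot be told apart, and the libraries are 1 sample each.

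The cattle-yak library held no cluster named late-SPC-like or SPT-like. Its germ-like cells were 112 early-SPC-like cells within the depth limits and 133 deep cells in clusters that were SPG-like, early-SPC-like or, in 10 cells, of no single stage. These 245 cells had 8 UMIs of the 6 genes, 7 of ACTRT3 and 1 of ACTL7B. In the 10 cells of no single stage the late-SPC list stood at 1672 CPM, beside 1783 CPM in the early-SPC-like deep yak cluster 11. The 6 genes had no UMI in these 10 cells (upper limit 14.6 CPM). In the yak cluster they had 3 UMIs, or 6.60 CPM (1.36 to 19.3). A further deep cluster of 87 cells stayed unnamed because DLK1, a marker of another class, was among its leading genes. Its SPG list stood at 3126 CPM, beside 3490 and 3362 CPM in the SPG-like clusters 3 and 6, and it had 7 UMIs of the 6 genes, 6 of ACTRT3 and 1 of ACTL7B. Against all kept germ-like yak cells, which include SPT, the kept germ-like cattle-yak cells had a log2 ratio of -7.73 (-10.78 to -5.88). Between the kept clusters named early-SPC-like the sum was 3.36 CPM (0.407 to 12.1) in cattle-yak and 23.6 CPM (16.0 to 33.7) in yak, a log2 ratio of -2.81 (-5.92 to -0.84) that rests on 2 and 30 UMIs. These cells were not matched in stage, since the late-SPC list stood at 208 CPM in the cattle-yak and 562 CPM in the yak, the SPG list at 1218 and 787 CPM, and the spermatocyte gene PIWIL1 at 31.9 and 214 CPM. Kept cells outside the germ line stood at 26.7 CPM in the yak and at 2.96 CPM in the cattle-yak, and the part of this background in the difference was not tested. Differences of single genes between these cells were not detectable at this depth.

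ACTRT3 was the exception among the 6 genes in the cattle-yak. Its 105 UMIs lay in 104 cells, and it was counted in 7 of the 8 named somatic classes, at 2.29 CPM in T/NK-like cells, 2.57 in stromal-like, 2.62 in EC-like and 2.94 in MC-like cells. The intervals of these classes overlapped. In kept cells outside the germ line ACTRT3 lay at 2.65 CPM in the cattle-yak and at 5.90 CPM in the yak, a log2 ratio of -1.16 (-1.58 to -0.75). In the same cells ACTL7B had a log2 ratio of -6.42 (-9.48 to -4.55) and CCIN of -4.21 (-5.68 to -3.05).

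**Figure D5:**
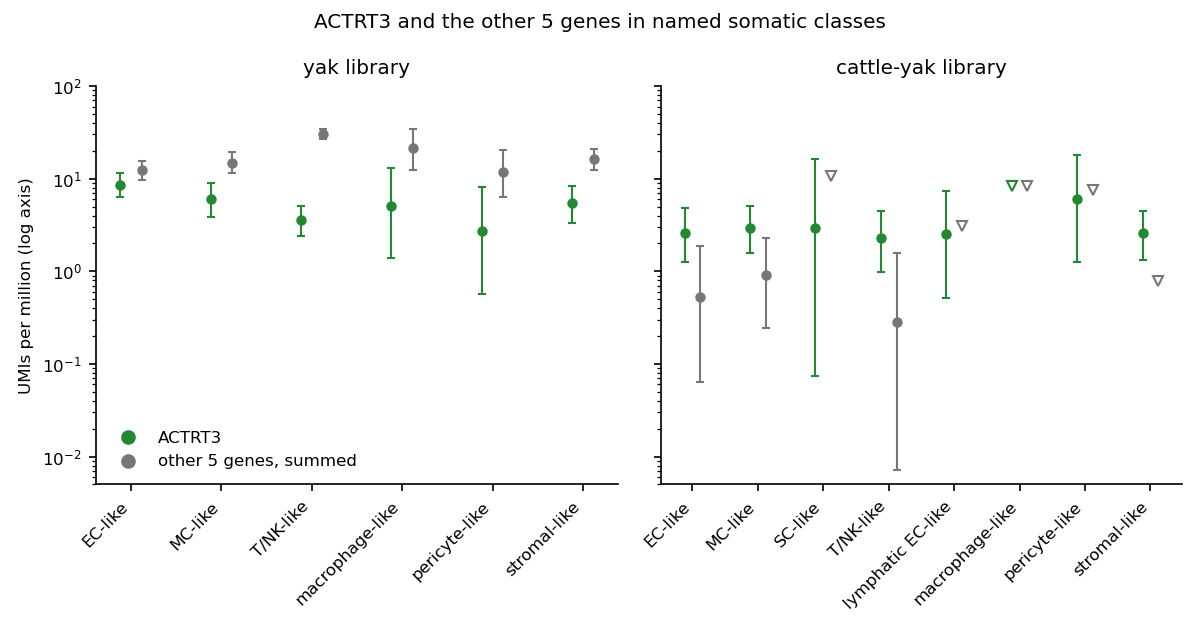
CPM (log axis) of ACTRT3 (green) and of the other 5 genes summed (grey) in the named somatic classes of each library, with exact 95% Poisson intervals and open triangles for upper limits where no UMI was counted. In the yak the sum of the other 5 genes lies above ACTRT3 in every class, with overlapping intervals in EC-like, macrophage-like and pericyte-like cells. Gene by gene, ACTRT3 is the highest in EC-like (8.58 CPM), MC-like (5.96 CPM) and stromal-like (5.43 CPM) cells. Its interval is clear of that of ACTL7B, the next gene, in EC-like cells only. In the cattle-yak ACTRT3 lies between 2.29 and 6.09 CPM in 7 classes and the other 5 genes lie at or below 0.904 CPM in all 8.

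Of the theca and acroplaxome list, 26 genes had at least 20 UMIs over both libraries, of which 16 had a log2 ratio of -1 or less in the cattle-yak, beside 14.1% of all genes, and none had 1 or more, beside 1.89%. ACTL9, PLCZ1, SPATA46 and SPACA4, which were high in SPT, had no UMI in the cattle-yak library. DPY19L2 and SPATA16, which were high in late-SPC, had 70 and 256 UMIs there, against 2233 and 7930 in the yak. With log2 ratios of -3.86 and -4.26 (1 CPM added to both levels) they were among the lower genes as well. Among the 8 general actin genes none passed either limit, and the median log2 ratio was -0.22. For the alpha subunits, 6087 UMIs of CAPZA1 and CAPZA2 were counted in the cattle-yak and none of CAPZA3, which allows a share of up to 0.0493%.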

How the data were processed

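The members, the gene lists and the tests were chosen with earlier results of these data known. Per the file headers, the deposited values are whole UMI counts for every gene in every barcode, made by the authors with Cell Ranger 5.0.0; the labels name version 2.1.1 and the methods another, with reads mapped to the yak genome BosGru3.0. Counts were not normalized by the authors. Cell types came from the study's barcode list. Other cells were filtered by the rule the study states (genes and UMIs within 2 SD of the mean, mitochondrial share below 30%), recomputed here, which kept more yak cells than the study did, then clustered in scanpy 1.11.5 and leidenalg 0.10.2 on 2000 variable genes, 30 components and 15 neighbours, without the 6 genes and the theca list. A cluster was named from at least 3 enriched markers. Scrublet marked 0 yak cells and 251 cattle-yak cells, so its calls were not used in the yak and no cell was removed. Named genes were the 6 members, the theca genes past a log2 ratio of 1 between SPT and late-SPC, the capping subunits and the 3 genes most similar to each member. Genes outside that rule (ACTB, ACTG1, ACTR3, PFN1, TNP1, ACRV1, PIWIL1, DLK1) were named after their values were seen. Levels are summed counts per 1000000 UMIs (CPM) with exact Poisson intervals, ratios have exact conditional binomial intervals and shares exact Clopper-Pearson intervals (scipy 1.17.1). Log2 ratios over all genes and over the theca and actin lists have 1 CPM added to both levels. So do those of the 6 genes set beside them. A gene with 0 counts was set to 3 counts for a bound. The interval of the double ratio is a normal approximation on the log scale. UMIs remove most amplification copies, and intervals cover counting error only. The functions were tested on simulated counts. The alternatives were other denominators, cell weights, depth and mitochondrial limits, cluster resolutions, doublet limits, thinning depths and count minimums.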

Additional observations from a re-analysis of the deposited data

How the results depend on the processing

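Each library is 1 sample, so no value has an error between animals, and 1 yak decides all germ cell values. No paired analysis was possible because each group holds 1 library and no result comes from a test. No direction reversed in the 49 alternatives run, of which 11 moved a value outside its interval or, for the theca genes, a count by over 1.5 times. With every cell weighted equally, the log2 ratio of the summed genes was 2.91 for SPT to late-SPC, 5.66 for SPT to somatic cells and 0.78 for deep germ-like to typed germ cells. Without ACTL7B the first was 3.99. Without mitochondrial and rRNA UMIs the third was 1.02. Without the 10% of cells with the highest doublet scores the second was 6.53. Depth limits on log10 values put 76.6% of the UMIs of the genes in deep germ-like cells. SPT with 2 or more of the genes were 50% at 1000 UMIs and 42.9% without thinning. With no count minimum, 14 theca genes were higher in SPT. The contrast of ACTL7B and CAPZA3 in the deep cells was 4.63 at resolution 0.5. The double ratios and the runs without shared barcodes were added after the data were seen.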
